A study of Mus musculus with 21 samples.

Results

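The Siglec receptors, a family of sialic acid-binding lectins, were followed in sorted kidney macrophages. The genes *Siglec1*, *Siglecg*, *Siglech*, *Cd33* and a row named *Siglec5* were chosen by name, which are 5 of the 34236 gene names counted in 21 libraries. They were proposed with the values of these libraries in view, so their levels and fold changes are given as a description, with the standard deviation (SD) and the SE of the fitted fold change. Where calls of these genes by a test are printed, nothing is read from them. The name *Siglec5* was used for more than 1 mouse gene. The count table held a separate row for *Siglece* and none for *Siglecf*, and over the 21 libraries the *Siglec5* row followed *Siglecf* of the second deposited table (r = 0.988) and not *Siglece* (r = -0.63). It is therefore called *Siglecf* here, and *Siglece* is described beside the 5 as a sixth receptor, chosen after this was seen. Of the rest of the family, *Cd22*, *Mag* and *Siglec15* were also looked up.

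Siglecs are receptors of leukocytes that bind sialic acids, the sugars that cap many glycans on cell surfaces. Most of them carry tyrosine motifs in their tail, through which phosphatases such as the products of *Ptpn6* and *Ptpn11* are recruited and activating signals are dampened, while a few pair with the adaptor *Tyrobp* and can activate. *Siglec1* (sialoadhesin) is a long adhesion receptor of resident tissue macrophages, and *Siglecf*, *Siglecg*, *Siglech*, *Siglece* and *Cd33* itself belong to the rapidly evolving group related to *Cd33*.

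RNA came from macrophages (F4/80+CD64+) sorted from kidneys of male C57BL/6J mice labelled as 24 weeks old, after granulocytes and lymphocytes had been gated out by their surface markers. The populations taken were the monocyte-derived CD11chiMϕ and CD11cloMϕ, and the kidney-resident macrophages (KRM). Renal artery stenosis (RAS) had been induced by a cuff around the right renal artery, and in Sham mice the artery was exposed without a cuff. The groups held 3 Sham and 4 RAS libraries of CD11chiMϕ, 3 and 4 of CD11cloMϕ, and 4 and 3 of KRM, and all mice were of the same strain without a transgene in the labels. Whether each library was made from 1 animal or from a pool is not given in the sources used here, so the spread between libraries may be partly technical.

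The libraries held 6891177 to 18592427 counts. Levels are given as CPM, counts scaled to the library size with TMM factors, which allow a gene to be compared between libraries but not with another gene. A library with 0 counts of a gene may still hold up to 3, a limit for counting error only. In bulk samples fewer cells that express a gene and less RNA per cell cannot be told apart. The macrophage genes *Csf1r*, *Adgre1* (F4/80) and *Fcgr1* (CD64) were present in each group, with means of 1195 to 3617, 301 to 1530 and 48.7 to 182 CPM. Several libraries stood apart by markers of tubular epithelium, summed over 10 genes. Sham replicate 3 reached 7291 CPM in CD11chiMϕ, 2285 in CD11cloMϕ and 1140 in KRM, KRM RAS replicates 2 and 3 reached 5014 and 3878, and the other 16 libraries held 13.9 to 637. The column of KRM RAS replicate 1 did not correspond between the 2 deposited tables (Pearson r over genes 0.0914, against 0.916 to 0.966 in the other 20), so its levels and edgeR and DESeq2 values here are those of the count table, while limma used that column of the second table unless said otherwise, and values without it are given beside the RAS results in KRM whose call or direction it decides.

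On GRCm38, *Siglecf* (chr7:43351341-43359531), *Siglecg* (chr7:43408204-43418358), *Cd33* (chr7:43524216-43544428) and *Siglece* (chr7:43651070-43660161) lie within 309 kb of chromosome 7, the first 2 on the plus strand and the others on the minus strand. *Siglech* (chr7:55768178-55778925) lies 12.1 Mb beyond them, and *Siglec1* (chr2:131069220-131086765) on chromosome 2. Reads can be shared between such related genes, so their values carry that uncertainty. The 250 bases before the start sites of *Siglecf*, *Siglecg* and *Siglece* are shown because these neighbours differed in where they were high: *Siglecf* in CD11cloMϕ, *Siglecg* in both monocyte-derived populations and *Siglece* in KRM. Promoters of 5 of the 6 receptors, all but *Siglec1*, were matched in RefSeq on GRCm38.p6. Those shown lie at chr7:43351091-43351340, chr7:43407989-43408238 and chr7:43660162-43660411, and for *Siglecg* belong to the nearer of 2 listed starts to its annotated one. They are written 5′ to 3′ on the strand of the gene, and capitals mark the letters GAGGAA or their complement TTCCTC, the core of sites for the myeloid factor PU.1.
Siglecf: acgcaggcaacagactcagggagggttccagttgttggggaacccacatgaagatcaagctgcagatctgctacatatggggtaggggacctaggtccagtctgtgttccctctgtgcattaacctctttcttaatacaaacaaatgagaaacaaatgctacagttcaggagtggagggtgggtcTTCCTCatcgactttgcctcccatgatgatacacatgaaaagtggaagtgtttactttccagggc
Siglecg: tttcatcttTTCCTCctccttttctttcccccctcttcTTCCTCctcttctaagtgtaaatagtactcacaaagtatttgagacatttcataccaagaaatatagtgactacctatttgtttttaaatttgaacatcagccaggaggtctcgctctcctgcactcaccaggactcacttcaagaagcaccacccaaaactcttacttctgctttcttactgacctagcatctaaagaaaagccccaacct
Siglece: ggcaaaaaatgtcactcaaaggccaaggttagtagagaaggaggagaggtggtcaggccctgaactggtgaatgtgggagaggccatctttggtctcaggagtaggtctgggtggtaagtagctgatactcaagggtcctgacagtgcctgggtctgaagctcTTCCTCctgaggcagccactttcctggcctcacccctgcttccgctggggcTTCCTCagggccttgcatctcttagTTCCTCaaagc
There was 1 match before *Siglecf*, 2 before *Siglecg* and 3 before *Siglece*, each on the complementary strand, and the nearest to a start site lay 6 to 11 bases before that of *Siglece*. At least 1 match was held by 23.3% of the 32851 promoters of the same length in that table. *Cd33* held 1 match and *Siglech* none. The *Cd33* promoter used, chr7:43533172-43533421, lies before its 1 listed start, which is inside the annotated gene. Of the other letters searched on both strands, TTGCNNAA (C/EBP, in 9.56% of promoters) was found once, before *Siglech*, and the composite PU.1-IRF element (2.3%), the interferon-stimulated response element (2.98%) and TGCTGA (MAF, 16.1%) before none of the 5. A match is not a site shown to be bound.

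In Sham kidneys the receptors split the populations. KRM held the most *Siglece* and hardly any *Siglecf* or *Siglecg*, CD11cloMϕ held the most *Siglecf* and the least *Siglech*, and CD11chiMϕ held *Siglecg* together with the most *Siglech*. *Siglec1* and *Cd33* were present in all 3 and differed by less than 3-fold between group means. The plot of CPM by library shows all 21 values of each gene.

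**Figure D1:**
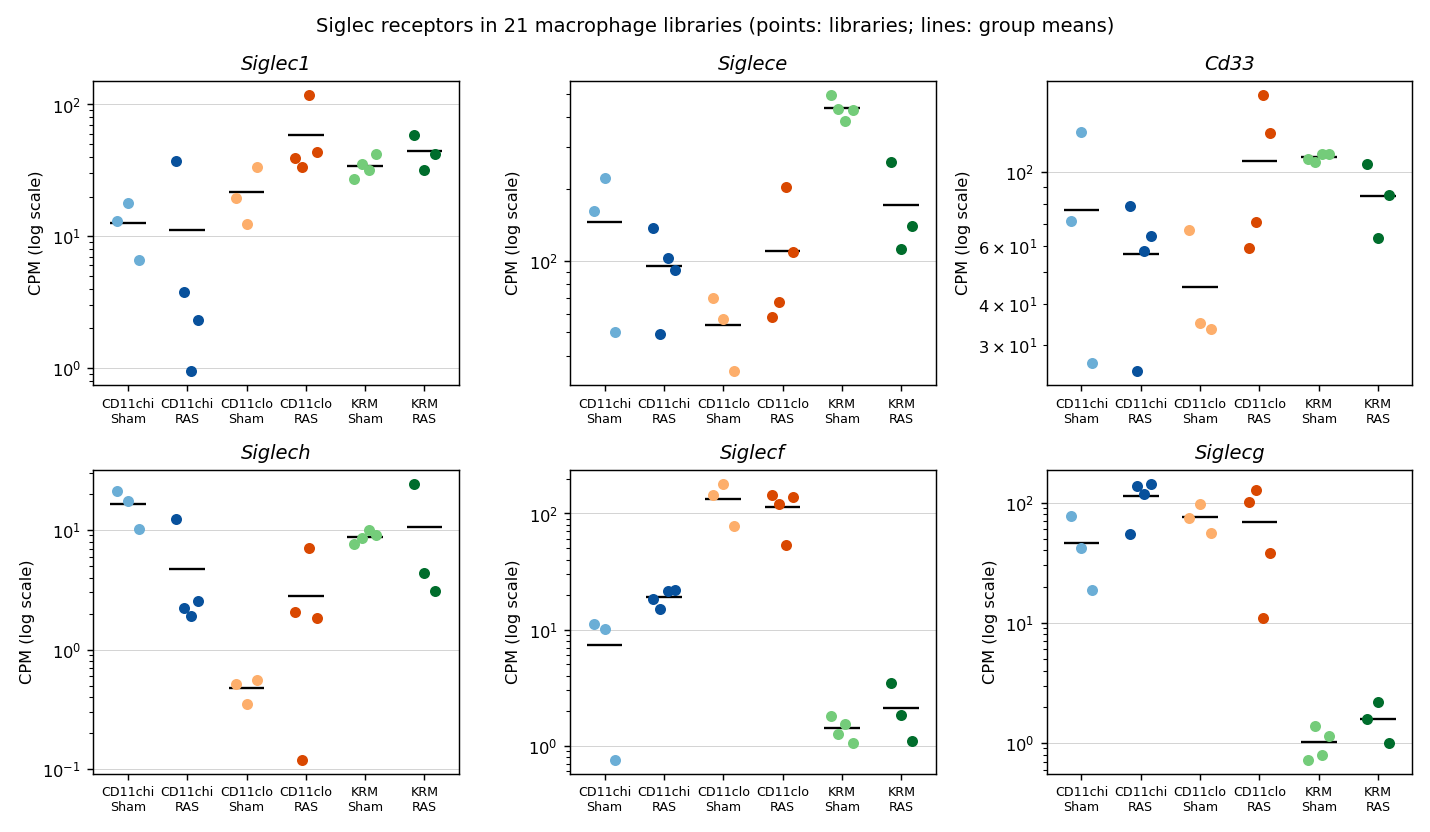
Each panel plots CPM of 1 receptor on a log scale, with 1 point per library and a line at the mean of each of the 6 groups. *Siglecf* and *Siglecg* stayed between 0.722 and 3.44 CPM in all 7 KRM libraries, and *Siglece* was at 386 to 496 CPM in the 4 KRM Sham libraries.

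*Siglecf*, an inhibitory receptor known from eosinophils and alveolar macrophages, was at 143, 181 and 78.0 CPM in CD11cloMϕ from Sham kidneys. CD11chiMϕ held 11.1, 10.1 and 0.753 CPM, the last in replicate 3, and KRM held 1.80, 1.27, 1.55 and 1.05 CPM. The CD11cloMϕ libraries lay above all others, and the lowest CD11chiMϕ library lay below KRM, so those ranges overlapped. The mean in CD11cloMϕ was 94.7 times that in KRM and 18.3 times that in CD11chiMϕ. From edgeR the log2 fold change of KRM over CD11cloMϕ was -6.57 (SE 0.36), and that of KRM over CD11chiMϕ was -2.38 (SE 0.75), or -2.90 without CD11chiMϕ Sham replicate 3.

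*Siglecg*, a B cell and dendritic cell receptor that binds sialylated *Cd24a*, was at 78.0, 41.6 and 18.8 CPM in CD11chiMϕ and 73.8, 97.7 and 55.8 CPM in CD11cloMϕ. KRM held 0.722, 1.38, 0.798 and 1.15 CPM, from 6 to 16 counts per library. The 2 monocyte-derived populations overlapped and KRM lay far below both, at a log2 fold change of -5.54 (SE 0.52) against CD11chiMϕ and -6.26 (SE 0.30) against CD11cloMϕ.

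*Siglece*, an inhibitory receptor of neutrophils, monocytes and macrophages, showed the opposite order. It was at 496, 434, 386 and 429 CPM in KRM, at 162, 223 and 50.2 CPM in CD11chiMϕ and at 69.8, 57.0 and 34.4 CPM in CD11cloMϕ. KRM lay above both other populations, which overlapped. The log2 fold change of KRM was 1.56 (SE 0.44) over CD11chiMϕ and 2.99 (SE 0.26) over CD11cloMϕ. *Cd33*, the myeloid receptor that names the group, was held in a narrow range in KRM, at 110, 107, 114 and 113 CPM. In CD11cloMϕ it was lower, at 66.8, 35.0 and 33.7 CPM, a log2 fold change of KRM over CD11cloMϕ of 1.27 (SE 0.25). CD11chiMϕ spanned these values with 71.3, 132 and 26.6 CPM.

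*Siglech*, known from plasmacytoid dendritic cells and microglia and coupled to *Tyrobp*, was at 21.3, 17.6 and 10.2 CPM in CD11chiMϕ and 7.58, 8.57, 9.92 and 8.99 CPM in KRM. CD11cloMϕ held 0.517, 0.348 and 0.553 CPM, which are only 3 to 5 counts per library. The 3 ranges did not overlap, with CD11chiMϕ highest, although its lowest library stood only just above KRM. That library was replicate 3, with a tubular sum of 7291 CPM. Its macrophage identity list of 10 genes summed to 2185 CPM, against 6295 and 7876 in replicates 1 and 2 and 10054 to 11347 in KRM. Per 1000 CPM of that list *Siglech* was at 2.24 to 4.65 in CD11chiMϕ, 0.685 to 0.987 in KRM and 0.0651 to 0.0992 in CD11cloMϕ. The log2 fold change of CD11chiMϕ over CD11cloMϕ was 5.13 (SE 0.43), which rests on the few counts in CD11cloMϕ. *Siglec1* was at 27.1, 35.5, 31.8 and 42.1 CPM in KRM and at 13, 17.9 and 6.65 CPM in CD11chiMϕ, without overlap, a log2 fold change of 1.40 (SE 0.32). CD11cloMϕ lay across both with 19.3, 12.4 and 33.6 CPM. Per 1000 CPM of the macrophage identity list *Siglec1* overlapped, at 2.44 to 3.71 in KRM and 2.06 to 3.04 in CD11chiMϕ. *Cd33* was lower in KRM, at 9.66 to 11.29, than in CD11chiMϕ, at 11.32 to 16.8, and overlapped CD11cloMϕ, at 6.05 to 11.93. *Siglecf* of KRM, at 0.0922 to 0.163, lay below CD11chiMϕ, at 0.345 to 1.76, without overlap. *Siglece* stayed highest in KRM and *Siglecg* lowest, both without overlap.

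Genes were called at an adjusted p under 0.05 (edgeR's quasi-likelihood test, Benjamini-Hochberg over all genes tested). Between KRM and CD11chiMϕ, 1 of the 5 chosen genes was called (*Siglecg*), where 5.12% of 12404 genes were. Between KRM and CD11cloMϕ 4 of 5 were called (*Siglecf*, *Siglecg*, *Siglech* and *Cd33*), where 41.8% of 12399 were, and between CD11chiMϕ and CD11cloMϕ 1 of 5 (*Siglech*), where 1.52% of 12105 were. The choice of genes used these contrasts, so nothing is read from the counts. Sham replicate 3 bears on them. Without CD11chiMϕ Sham replicate 3 the first count was 4, where 1717 of 12628 genes were called, and the last 2, where 704 of 12353 were. Without any 1 other library of the last comparison the last count was 0, where 0 of all genes tested were called. Deviations of same-numbered Sham libraries from their group means correlated between populations, most in replicate 3, but differently numbered pairs were not compared. Blocking on the replicate number gave 1, 4 and 2, where 89 of 12404, 4250 of 12399 and 595 of 12105 genes were called. Groups without overlap numbered 3, 4 and 2 of 5, against 22.5%, 43.5% and 24.3% of 14504 genes.

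Levels of different receptors can be set side by side only per unit of length, which the second deposited table allows once its log2 values are turned back to TPM, which are scaled to transcript length and library size. On that scale *Siglece* ranked first in KRM from Sham kidneys, with 476 ± 18.8 TPM (SD, n = 4), ahead of *Cd33* with 100.4 ± 5.31. *Siglec1* at 8.69 ± 1.53 and *Siglech* at 7.66 ± 1.24 followed with overlapping ranges, and *Siglecf* at 1.19 ± 0.34 and *Siglecg* at 0.666 ± 0.238, also overlapping, came last. In CD11cloMϕ *Siglecf* led with 81.0 ± 31.6 TPM (SD, n = 3), but its range overlapped that of *Siglece* at 46.6 ± 14.1, which in turn overlapped *Siglecg* at 36.6 ± 10.8 and *Cd33* at 34.1 ± 12.5. *Siglec1* at 6.38 ± 2.01 and *Siglech* at 0.859 ± 0.167 stood below them, apart from each other. In CD11chiMϕ the order ran from *Siglece* at 142 ± 91.5 TPM (SD, n = 3) over *Cd33* at 62.8 ± 44.8, *Siglecg* at 23.4 ± 16.4, *Siglech* at 13.1 ± 5.73 and *Siglecf* at 4.78 ± 4.08 to *Siglec1* at 3.59 ± 2.05. There every neighbour in the order overlapped the next.

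**Figure D2:**
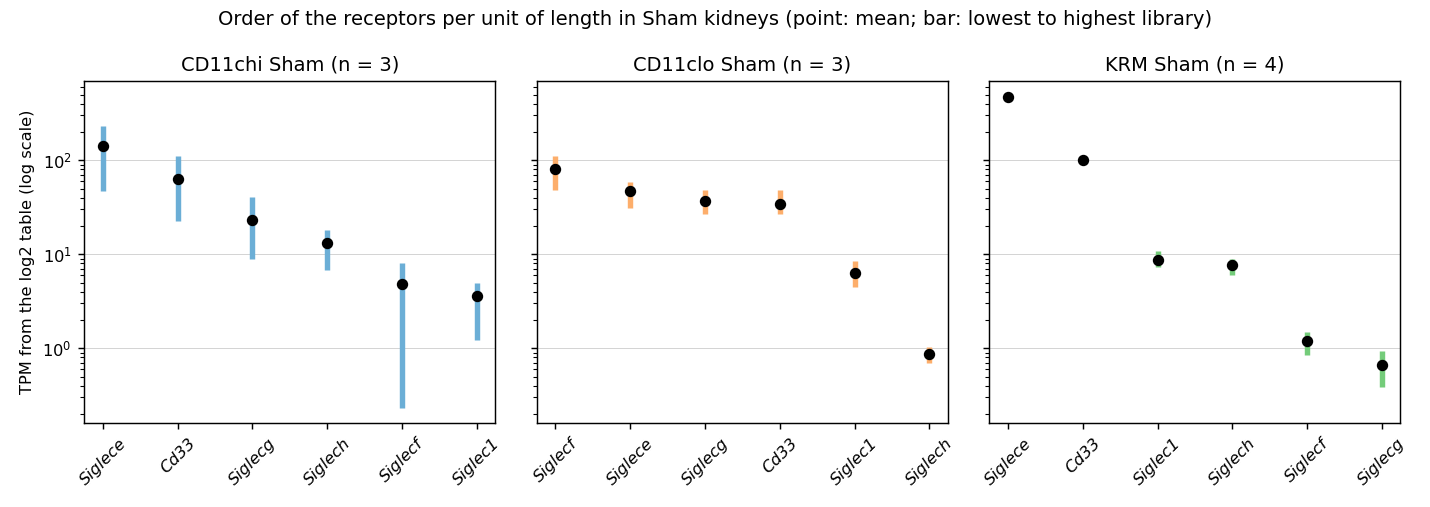
For each Sham population the 6 receptors are ordered by mean TPM (black points, log scale), and bars run from the lowest to the highest library. *Siglece* and *Cd33* stood clear of the others in KRM, with means of 476 and 100.4 TPM, while in CD11cloMϕ 4 receptors had means between 34.1 and 81.0 TPM.

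Markers of other cells that these receptors are known from were set beside them. For *Siglecf* the eosinophil list of 7 genes summed to 161 to 373 CPM in CD11cloMϕ from Sham kidneys, 2.01 to 21.3 in CD11chiMϕ and 1.46 to 3.59 in KRM. Nearly all of this was *Ccr3*, a chemokine receptor, at 134 to 313 CPM in CD11cloMϕ, and *Il5ra*, the interleukin receptor subunit of eosinophils, at 25.2 to 55.5. The granule genes were at or near 0, with no count of *Epx* in any Sham library and *Prg2* at 0.6 to 2.79 CPM over the Sham libraries of all populations. *Ccr3* was called lower in KRM than in CD11cloMϕ, by a log2 fold change of -8.40 (SE 0.41, adjusted p = 4e-06), as was *Il5ra*, at -6.54 (SE 0.62, adjusted p = 9.98e-05). In RAS kidneys CD11chiMϕ held *Siglecf* at 18.3, 15.1, 21.5 and 22.0 CPM with *Ccr3* at 26.1, 0.951, 0.24 and 0 CPM. CD11cloMϕ RAS replicate 3 was the lowest of its group for both genes. Replicates 1 and 4 there held 144 and 139 CPM of *Siglecf* with 352 and 59.25 CPM of *Ccr3*. The sort gated granulocytes out, and the part of remaining eosinophils in *Siglecf* was not tested.

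For *Siglecg* the B and plasma cell list of 12 genes did not follow the receptor. Its sum was 415 to 524 CPM in KRM from Sham kidneys, where *Siglecg* was lowest, and 16.1 to 48.1 CPM in CD11cloMϕ, where *Siglecg* was high. In KRM most of the sum was the immunoglobulin joining chain gene *Jchain*, at 326 to 417 CPM, followed by *Cd79b*, a chain of the B cell receptor, at 80.3 to 121 CPM. Over all 21 libraries *Ms4a1* stayed at or below 3.29 CPM, and *Pax5* had 1 count in all. The dendritic cell list of 10 genes summed to 449 to 1931 CPM in CD11chiMϕ, 93.1 to 221 in CD11cloMϕ and 206 to 246 in KRM. Within CD11chiMϕ its sum and *Siglecg* had the same order over all 3 Sham libraries, both lowest in replicate 3, which held the tubular markers. Per 1000 CPM of the macrophage identity list *Siglecg* was instead lowest in replicate 2, at 12.4, 5.29 and 8.6 in replicates 1 to 3. In CD11cloMϕ *Siglecg* was as high at a much lower sum of the dendritic cell list. For *Siglech* the plasmacytoid dendritic cell list without *Klk1*, a gene also abundant in kidney tubules, summed to 153 to 225 CPM in CD11chiMϕ, 155 to 172 in CD11cloMϕ and 217 to 297 in KRM. Most of it was *Bst2* and *Tcf4*, which were present in every Sham group, at means of 73.8 to 173 and 54.3 to 85.9 CPM. Of the rarer genes of the list, *Spib*, *Ly6d* and *Pacsin1* had their highest Sham mean in CD11chiMϕ, as *Siglech* did: *Spib* was at 5.12 ± 4.57 CPM (SD, n = 3) there against 0.928 in CD11cloMϕ and 0.212 in KRM, *Ly6d* at 5.36 ± 5.80 against 0.84 and 1.33, and *Pacsin1* at 1.17 ± 0.665 against 0.147 and 0.0125. *Runx2* and *Smim5* instead had it in CD11cloMϕ, where *Siglech* was near 0, at 17.0 and 14.6 CPM against 11.8 and 13.4 in CD11chiMϕ and 2.72 and 0.583 in KRM. Of the 7 genes of the whole list tested between KRM and CD11chiMϕ, where 5.12% of all genes were called, 2 were called lower in KRM (*Spib* and *Smim5*, at -4.62 and -4.49, edgeR, adjusted p = 0.0251 and 0.00977) and none higher, with a median of -2.14. *Ccr9* and *Cox6a2* had means of at most 1.08 and 0.481 CPM in the Sham groups. The part of these cells in the receptors was not tested beyond these values.

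**Figure D3:**
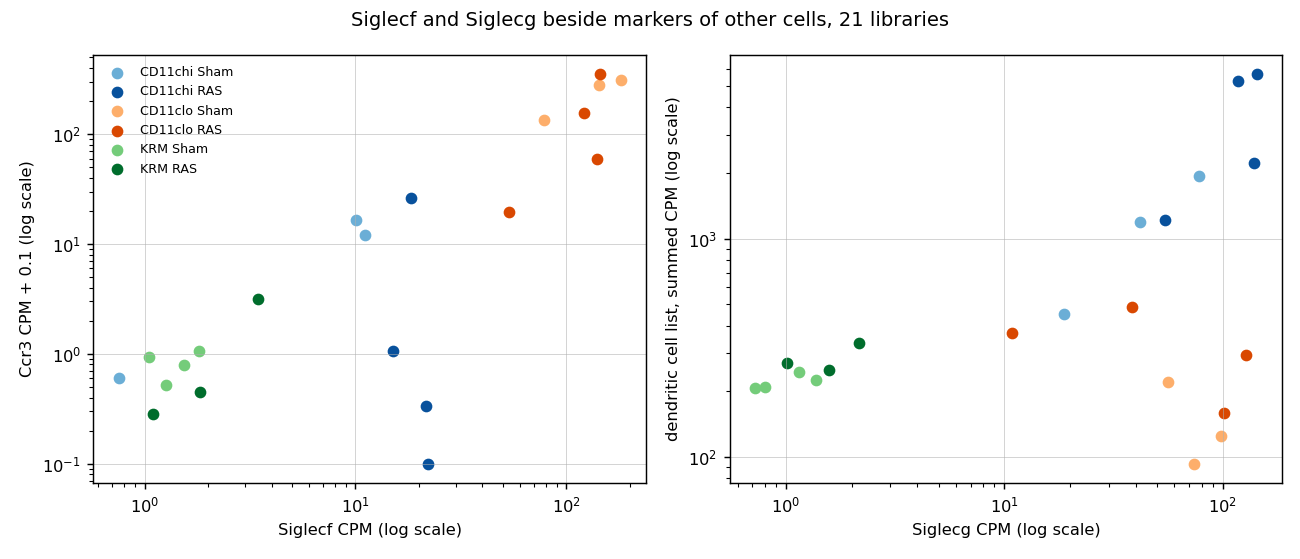
On the left *Siglecf* is plotted against *Ccr3* plus 0.1, and on the right *Siglecg* against the summed dendritic cell list, in CPM on log scales with 1 point for each of the 21 libraries. CD11cloMϕ libraries sit at the upper right for *Siglecf* with *Ccr3* at 19.6 to 352 CPM, and for *Siglecg* the CD11chiMϕ and CD11cloMϕ libraries form separate groups at 449 to 5689 and 93.1 to 488 CPM of the list.

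Stenosis was compared with Sham within each population. The estimates differed in direction between populations, with lower *Siglece* and *Cd33* in KRM, higher *Siglec1*, *Cd33* and *Siglece* in CD11cloMϕ, and lower *Siglech* with higher *Siglecf* and *Siglecg* in CD11chiMϕ. None of the 5 chosen genes was called in any of them. For CD11chiMϕ and CD11cloMϕ no gene at all was called by edgeR, that is 0% of 12739 and 0% of 12301, with 1247 and 1102 genes at an unadjusted p under 0.05. DESeq2 called 190 and 103 genes and limma 0 and 0, none of them a chosen gene. For KRM 9.7% of 12852 genes were called by edgeR. Groups without overlap numbered 1 of 5 in each population, where 6.62% of genes had none in CD11chiMϕ, 7.9% in CD11cloMϕ and 27.2% in KRM.

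In RAS-KRM *Siglece* was at 260, 112 and 140 CPM, below all 4 Sham-KRM libraries, which began at 386. The mean fell from 436 ± 45.5 (SD, n = 4) to 171 ± 78.9 (SD, n = 3), a log2 fold change of -1.25 (SE 0.28). It was among the genes called, but not with the replicate number as a block, in a fit over all 6 groups, or without any 1 of KRM Sham replicates 1, 2 and 4 and KRM RAS replicates 2 and 3, with log2 fold changes of -1.35 to -1.05 in these, and it was -1.72 without KRM RAS replicate 1. The libraries with the least *Siglece* were KRM RAS replicates 2 and 3, which held the tubular markers given above, and their summed macrophage identity list of 10 genes was 5004 and 6366 CPM, against 9177 in KRM RAS replicate 1 and 10054 to 11347 in Sham. Relative to that list, *Siglece* was at 37.8 to 44.8 CPM per 1000 CPM in Sham-KRM and 22.0 to 28.4 in RAS-KRM, still without overlap. KRM RAS replicate 1, with a tubular sum of 637, was at 28.4, and replicates 2 and 3 were at 22.3 and 22.0. The part of tubular RNA was not tested. All 10 list genes had negative log2 fold changes in RAS-KRM, with a median of -0.59, and 2 were called lower, so this ratio and those of the other receptors in RAS-KRM show unequal change only.

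**Figure D4:**
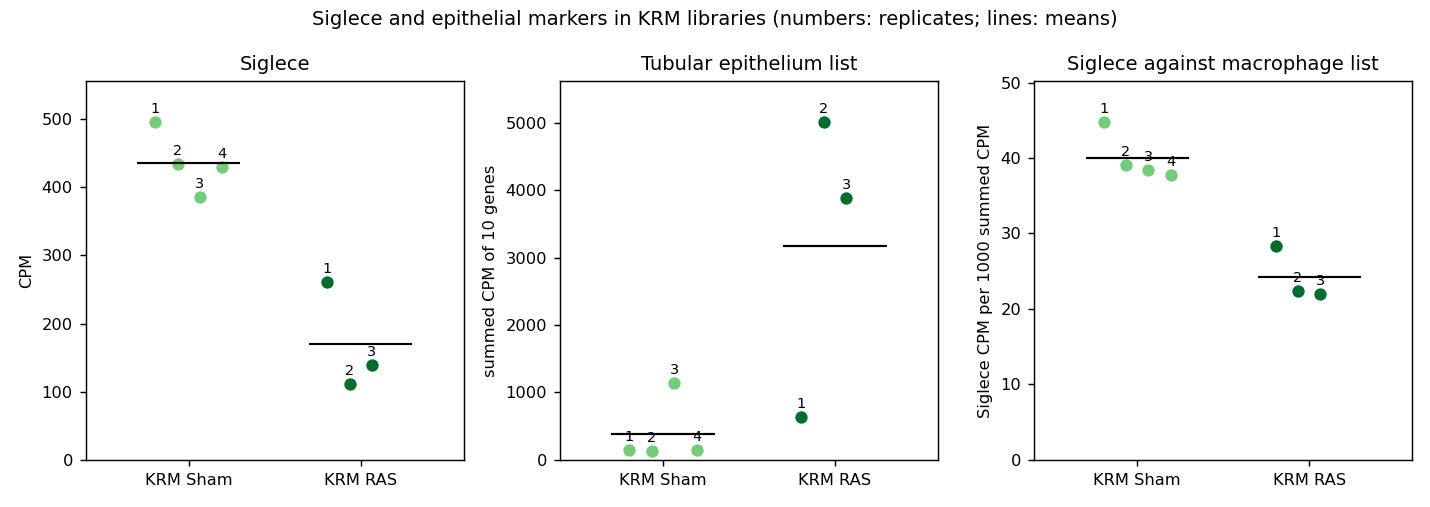
From left to right, *Siglece* in CPM, the summed CPM of 10 tubular epithelium genes, and *Siglece* per 1000 summed CPM of the macrophage identity list are plotted for 4 Sham-KRM and 3 RAS-KRM libraries, with replicate numbers and lines at the means. *Siglece* was lower in the 3 RAS libraries on the first and the last scale, while the tubular sum was 5014 and 3878 CPM in replicates 2 and 3 and 637 in replicate 1.

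*Cd33* in RAS-KRM was at 106, 63.3 and 85.2 CPM, just below the Sham range that began at 107 CPM, a log2 fold change of -0.28 (SE 0.17). Per 1000 CPM of the macrophage list it was instead higher, at 11.5 to 13.4 against 9.66 to 11.3 in Sham-KRM, so its direction turned with the scale. *Siglec1* was at 58.2, 31.8 and 42.1 CPM, across the Sham range. On the same relative scale it was at 6.35 to 6.62 in RAS-KRM against 2.44 to 3.71 in Sham-KRM, without overlap. *Siglech* was at 24.5 CPM in KRM RAS replicate 1 and at 4.34 and 3.11 CPM in replicates 2 and 3, above and below all Sham libraries. Its log2 fold change was 0.36 (SE 0.65) and turned to -1.16 without replicate 1. *Siglecf* at 3.44, 1.82 and 1.10 CPM and *Siglecg* at 1.57, 2.17 and 1.01 CPM were low and overlapped Sham. On the relative scale both were higher in RAS-KRM without overlap, *Siglecf* at 0.173 to 0.375 against 0.0922 to 0.163 and *Siglecg* at 0.158 to 0.434 against 0.0652 to 0.124. Without KRM RAS replicate 1 edgeR called 7070 of 14088 genes, *Cd33* and *Siglech* among them and both lower in RAS, from which nothing is read.

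In CD11cloMϕ from RAS kidneys *Siglec1* was at 39.3, 33.8, 118 and 43.5 CPM, all above the Sham libraries, of which the highest held 33.6 CPM. The log2 fold change was 1.41 (SE 0.54), or 0.82 without RAS replicate 3. The summed macrophage identity list was also higher in all RAS libraries of CD11cloMϕ, at 6040 to 10766 CPM against 5341 to 5598 in Sham, with all 10 genes at a positive log2 fold change and none called. Per 1000 CPM of that list *Siglec1* was at 5.59 to 10.98 in RAS and 2.32 to 6.03 in Sham, so the groups overlapped on that scale. *Cd33* was at 58.9, 70.7, 172 and 132 CPM and *Siglece* at 58.1, 67.3, 204 and 109 CPM, overlapping Sham, with log2 fold changes of 1.25 (SE 0.42) and 1.02 (SE 0.46), or 0.96 and 0.55 without RAS replicate 3. Replicate 3 was the highest for all of these and for *Siglech* at 7.12 CPM (2.06, 0.119 and 1.82 CPM in the others), and the lowest for *Siglecf* at 53.5 CPM (144, 121 and 139 CPM) and for *Siglecg* at 10.8 CPM (101, 128 and 38.3 CPM). It also held the highest macrophage identity sum of its group, 10766 CPM against 6040 to 7442, the lowest monocyte sum, 2998 against 5467 to 7183, and the lowest eosinophil sum, 25.3 against 82.7 to 442. For *Siglece* the neutrophil list of 10 genes is the marker to set beside it. Its sum in CD11cloMϕ was 1581 to 2427 CPM in RAS and 697 to 1636 in Sham, and at most 232 CPM in the other populations, with *S100a8* at means of 504 and 106 CPM and *Cxcr2* at 105 and 12.3 CPM in RAS and Sham, but *Retnlg*, the most abundant of the list, at 623 and 987 CPM. None of its genes was called with RAS, and *Ly6g* and *Mpo* were at or near 0. The part of these cells was not tested.

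In CD11chiMϕ from RAS kidneys *Siglech* was at 12.4, 2.22, 1.89 and 2.55 CPM, and *Siglec1* at 37.2, 3.81, 0.946 and 2.31 CPM. In both the first value is replicate 1, and the other 3 libraries lay below all Sham libraries. The log2 fold changes were -1.82 (SE 0.73) and -0.21 (SE 1.13), and -2.96 and -2.49 without that library. *Siglecg* was at 54.4, 138, 117 and 144 CPM, the lowest again replicate 1, and *Siglecf* at 18.3, 15.1, 21.5 and 22.0 CPM, above all Sham libraries. Their log2 fold changes were 1.22 (SE 0.51) and 1.33 (SE 0.72), the latter 0.81 without CD11chiMϕ Sham replicate 3. The dendritic cell list itself had positive log2 fold changes with RAS for 9 of its 10 genes, with a median of 1.06 and none called, at 1213 to 5689 CPM in sum against 449 to 1931 in Sham, and the macrophage identity list had a median of -0.72. Replicate 1 held 1213 CPM of the dendritic cell list against 2220 to 5689 in the others, and 6718 CPM of the macrophage identity list against 2840 to 4790. This separated replicate 1 from the rest, and among the other 3 libraries *Siglech* and *Siglecg* did not follow the sum. The part of dendritic cells was not tested. *Cd33* at 79.0, 25.1, 57.8 and 64.1 CPM and *Siglece* at 137, 49.5, 102 and 91.8 CPM overlapped Sham. Per 1000 CPM of the macrophage identity list *Siglece* was lower in RAS without overlap, at 17.4 to 21.4 against 23.0 to 28.3. So was *Siglech*, at 0.395 to 1.84 against 2.24 to 4.65, and *Siglecf* was higher, at 2.72 to 5.30 against 0.345 to 1.76. The other receptors overlapped on that scale, which shows unequal change only.

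**Figure D5:**
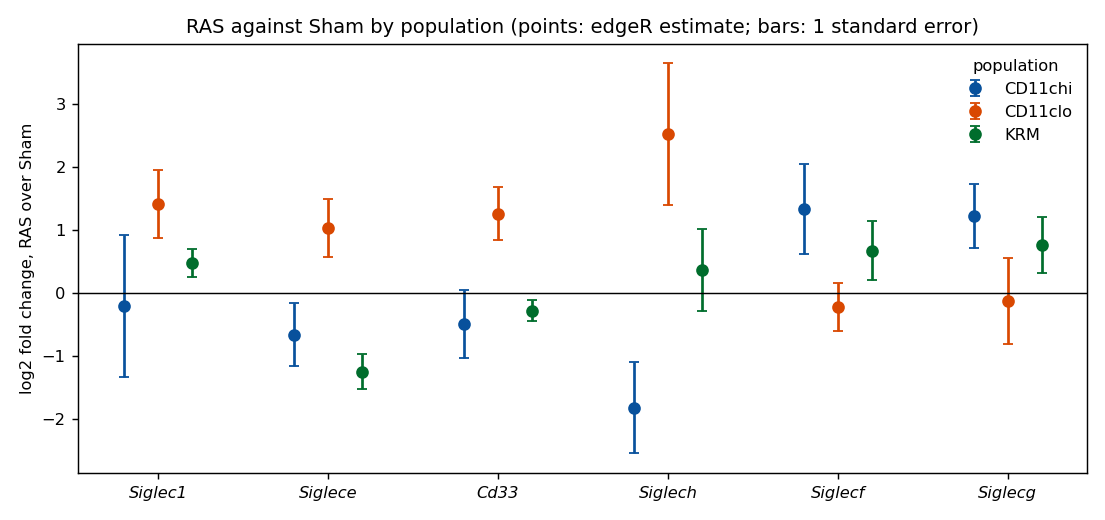
Points are edgeR log2 fold changes of RAS over Sham for the 6 receptors in CD11chiMϕ, CD11cloMϕ and KRM, and bars are 1 standard error. For *Siglece* the estimate was -1.25 in KRM and 1.02 in CD11cloMϕ, and for *Siglech* it was -1.82 in CD11chiMϕ and 2.51 in CD11cloMϕ.

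Whether the response to stenosis differed between populations was estimated as an interaction. By edgeR none of the 6 receptors was called, where it called 0% of 14137 genes for KRM minus CD11chiMϕ, 0.245% of 13877 for KRM minus CD11cloMϕ and 0% of 13540 for CD11chiMϕ minus CD11cloMϕ, with 2999, 3289 and 900 genes at an unadjusted p under 0.05. DESeq2 called 1231, 1380 and 15 genes, and limma 133, 1459 and 0. Both called *Siglece* and *Cd33* for KRM minus CD11cloMϕ, and no receptor in the others. Without the column of KRM RAS replicate 1 limma called *Siglech* as well, where it called 3932 of 14020 genes. The largest differences among the receptors were those of *Siglech* in CD11chiMϕ minus CD11cloMϕ, at -4.30 (SE 1.36), and of *Siglece* in KRM minus CD11cloMϕ, at -2.31 (SE 0.60), and the corresponding value of *Cd33* was -1.58 (SE 0.51). Without KRM RAS replicate 1 edgeR called 2357 of 14638 genes for KRM minus CD11cloMϕ, among them *Siglece* and *Cd33*, at -2.76 (SE 0.61) and -1.78 (SE 0.55), while *Siglech* was at -3.72 (SE 1.25) and not called. These comparisons share the CD11cloMϕ libraries, so they are not independent of each other. The receptors were chosen with values of these libraries in view, so nothing is read from their calls by any tool.

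In RAS kidneys KRM lay below CD11chiMϕ and CD11cloMϕ for *Siglecf* and *Siglecg*, without overlap, where in Sham kidneys *Siglecf* of KRM and CD11chiMϕ had overlapped, with mean ratios of 9.06 and 53.9 for *Siglecf* and 71.7 and 43.9 for *Siglecg*, beside 5.16 and 94.7, and 45.6 and 74.9, in Sham kidneys. *Siglece* no longer had KRM alone on top, since its 3 libraries at 112 to 260 CPM overlapped the 49.5 to 137 CPM of CD11chiMϕ and the 58.1 to 204 CPM of CD11cloMϕ. In these kidneys 2 of 5 chosen genes had no overlap between KRM and CD11chiMϕ and 2 of 5 between KRM and CD11cloMϕ, where 25.5% and 29.2% of genes had none, and 1 of 5 between CD11chiMϕ and CD11cloMϕ, where 15% had none.

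Of the other family members, *Cd22*, an inhibitory B cell receptor, was at 9.63, 14.3, 12.9 and 9.41 CPM in KRM from Sham kidneys and 2.17, 3.25 and 3.10 CPM in CD11cloMϕ, a log2 fold change of 2.01 (SE 0.30, adjusted p = 0.00105 from edgeR). *Mag*, a receptor of myelin-forming cells, was at 27.6, 18, 16.0 and 17.5 CPM and 8.06, 3.13 and 5.31 CPM, at 1.82 (SE 0.36, adjusted p = 0.00443). *Cd22* and *Mag* were also present in CD11chiMϕ, at 10.3 ± 3.74 and 9.0 ± 3.39 CPM (SD, n = 3), and in neither was a change with RAS called. No count of *Siglec15*, a receptor of osteoclasts, was found in any library.

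Downstream of the receptors, 10 genes of adaptors and signalling were followed, and none was called between KRM and CD11chiMϕ, between CD11chiMϕ and CD11cloMϕ, or with RAS in any population. Against CD11cloMϕ 7 of the 10 were lower in KRM and 1 higher, where 41.8% of all genes were called, with a median log2 fold change of -0.62, beside -0.04 over all genes tested. The higher one was *Inpp5d*, an inhibitory lipid phosphatase, at 537 ± 39.8 CPM (SD, n = 4) in KRM and 327 ± 8.04 (SD, n = 3) in CD11cloMϕ, a log2 fold change of 0.69 (SE 0.11, adjusted p = 0.00157 from edgeR). Among the lower ones were *Socs3*, a feedback inhibitor of cytokine signalling, and the kinase *Syk*, at -0.77 and -0.69 (adjusted p = 0.00362 and 0.00967). *Tyrobp*, the partner of *Siglech*, was abundant in all groups at means of 600.0 to 1606 CPM, also where *Siglech* was near 0. *Ptpn6* had group means of 483 to 981 CPM.

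Of 20 sialyltransferases, which add sialic acid to glycans, 14 were tested between KRM and CD11cloMϕ, with 3 higher and 5 lower in KRM and a median log2 fold change of -0.30, where 41.8% of all genes were called. Between KRM and CD11chiMϕ 3 of 13 were called (5.12% of all genes), and between CD11chiMϕ and CD11cloMϕ 1 of 14 (1.52%). The widest well-counted difference was *St3gal6*, at 293 ± 20.2 CPM (SD, n = 4) in KRM, 110 ± 44.3 (SD, n = 3) in CD11chiMϕ and 13.2 ± 3.10 (SD, n = 3) in CD11cloMϕ. Its log2 fold change was 4.44 over CD11cloMϕ and 1.37 over CD11chiMϕ (adjusted p = 1.89e-06 and 0.0294), and 3.12 in CD11chiMϕ over CD11cloMϕ (adjusted p = 0.0231), all from edgeR. *St3gal5*, which starts the gangliosides, was lower in KRM, at 15.1 ± 2.47 CPM against 75.6 ± 38.7 in CD11chiMϕ and 40.4 ± 1.64 in CD11cloMϕ (log2 fold changes -2.36 and -1.45, adjusted p = 0.0135 and 0.000222). *St3gal4* was lower than in CD11cloMϕ, at -1.47 (adjusted p = 0.00122), and *St8sia1* lower than in CD11chiMϕ, at -2.32 (adjusted p = 0.0495). *St6galnac5* had no count in KRM and 1.22 to 2.78 CPM in CD11cloMϕ.

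With RAS, 1 of 13 sialyltransferases tested rose in KRM and 2 fell, where 9.7% of all genes were called. *St6gal1*, which makes the linkage bound by *Cd22*, rose from 39.7 ± 0.722 (SD, n = 4) to 66.8 ± 13.1 CPM (SD, n = 3), by 0.86 on the log2 scale (edgeR, adjusted p = 0.0269). *St3gal5* fell at -1.13 and *St3gal6* at -0.83 (adjusted p = 0.0269 and 0.0305). Without KRM RAS replicate 1 they were at 0.98, -1.11 and -1.07 (adjusted p = 0.000223, 0.00484 and 0.000318). None of the 3 was called in 1 fit over all 6 groups, with a block for the replicate number (42 genes called in all) or without any 1 of KRM Sham replicates 1, 2 and 4 and KRM RAS replicates 2 and 3 (28 to 43 genes), and *St3gal5* was also not called by limma, at -0.25, or -1.34 and called without the column of KRM RAS replicate 1. These calls were made beside the tubular markers of KRM RAS replicates 2 and 3, of which 4 of 9 tested were called higher in RAS-KRM, with a median log2 fold change of 5.21, and the part of tubular RNA was not tested. None of the sialyltransferases was called with RAS in CD11chiMϕ or CD11cloMϕ.

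Of the 6 genes of sialic acid synthesis and transport, 2 were higher in KRM than in CD11cloMϕ (*Nanp* and *Slc35a1*, at 1.72 and 0.53) and 2 lower (*Cmas* and *Nans*, at -1.10 and -0.86), with adjusted p from edgeR of 0.00279, 0.0207, 0.000799 and 0.0227, where 41.8% of all genes were called. Of 7 genes of sialic acid removal 5 were tested in that comparison and 1 was called, the esterase *Siae*, higher at 0.88 (adjusted p = 0.00575). In no other comparison was a gene of these lists called.

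Among 5 proteins that carry sialylated ligands, *Cd24a*, the known partner of *Siglecg*, was lowest in KRM, as the receptor was. It was at 383 to 703 CPM in CD11cloMϕ from Sham kidneys, 62.8 to 74.8 in CD11chiMϕ and 3.14 to 5.78 in KRM, with log2 fold changes in KRM of -7.04 against CD11cloMϕ and -4.14 against CD11chiMϕ (adjusted p = 3.7e-06 and 0.00205 from edgeR). *Spn* (CD43) was higher in KRM than in CD11cloMϕ at 1.57 (adjusted p = 4.47e-05). In RAS-KRM *Cd24a* ranged from 14.1 to 419 CPM, a log2 fold change of 6.03 (SE 1.00, adjusted p = 0.0231), *Muc1* from 3.04 to 137 CPM against at most 0.199 in Sham, and *Spn* was lower at -1.22 (adjusted p = 0.0371). Without KRM RAS replicate 1 *Cd24a* was at 6.51 and *Spn* at -1.70 (adjusted p = 5.64e-06 and 7.52e-05), and with the block or without any of the same 5 single libraries neither was called. *Cd24a* and *Muc1* are also genes of tubular epithelium, and their highest libraries were those with the tubular markers.

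The interferon-stimulated list of 12 genes was followed because *Siglec1* is known as an interferon-induced gene. In CD11cloMϕ, where *Siglec1* was higher in RAS, all 12 had positive log2 fold changes, with a median of 0.59 beside -0.02 over all genes tested, and none was called. Its sum was 1253 to 1998 CPM in RAS and 913 to 1387 in Sham, so the groups overlapped, and the library with the most *Siglec1*, replicate 3, was at 1504.

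Over the 21 libraries each receptor was set against the 8894 genes with an average log2 CPM of at least 3, as a description of likeness in log2 CPM (prior count 2). The libraries share populations and depth, so the correlations mostly follow the order of the 6 groups. *Siglec1* was most like *P2ry13*, *Adgre1* and *Fcgr1* (Pearson r = 0.933, 0.906 and 0.903), a nucleotide receptor and the genes of the sorting markers F4/80 and CD64. *Siglecf* was most like *Tmem154*, *Samhd1* and *Stx11* (r = 0.979, 0.976 and 0.974), and *Siglecg* most like *S100a4*, *Tiam1* and *Ltb4r1* (r = 0.978, 0.978 and 0.972). *Siglech* had the lowest values, with *Cd72*, *Cadm1* and *Gtf2h2* (r = 0.893, 0.887 and 0.879). *Cd33* was most like *Pik3ap1*, *Tnfrsf11a* and *Ctsc* (r = 0.94, 0.925 and 0.919), and *Siglece* most like *Abhd12*, *Tmbim1* and *Runx1* (r = 0.965, 0.964 and 0.964). With Spearman correlation 2 of these 3 genes were kept for *Siglecf* and *Siglece* and 1 for each of the others.

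Among themselves, over the same 21 libraries, *Siglece* and *Cd33* varied together (r = 0.80), as did *Siglecf* and *Siglecg* (r = 0.785), and *Siglece* varied against *Siglecg* (r = -0.759) and *Siglecf* (r = -0.607). *Cd33* had a weaker relation with *Siglecg* (r = -0.505) and little with *Siglecf* (r = -0.171). *Siglech* varied with *Siglece* (r = 0.679) and against *Siglecf* (r = -0.69). *Siglec1* had its strongest relation with *Cd33* (r = 0.571) and hardly any with *Siglecf* (r = -0.0326). From the lowest to the highest library the range was 240-fold for *Siglecf*, 205-fold for *Siglech*, 199-fold for *Siglecg* and 125-fold for *Siglec1*, but 14.4-fold for *Siglece* and 6.85-fold for *Cd33*.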

How the data were processed

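RNA of 21 libraries of sorted kidney macrophages was sequenced after SMART-Seq v4 amplification. The authors aligned paired-end reads to mm10 with the OmicSoft aligner and Ensembl gene models and deposited estimated counts per gene, of which 9.7 to 14.23% per library were not whole. They also deposited a table of log2(TPM + 1) values after quantile normalization.

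Counts were summed over lines sharing a name (3730 of 37620 lines) and rounded. Genes were filtered by expected size (filterByExpr, minimum count 10, minimum total 15), scaled by TMM and tested by the quasi-likelihood test of edgeR 4.0.16 in R 4.3.3, two-sided, fitting only the groups in question, with Benjamini-Hochberg adjustment over all genes tested. The scripts were tested on simulated data. Alternatives were median-of-ratios size factors, no filter, DESeq2 1.42.0, limma 3.58.1 fitted to the deposited log2 values, all 6 groups in 1 fit, a block for the replicate number, no Sham library numbered 3, and leaving out each library. The limma fit without the column of KRM RAS replicate 1 and the fit with no Sham library numbered 3 were chosen after seeing the data. Replicate numbers come from the labels. Deviations from group means correlated at 0.201 to 0.647 in the 9 same-numbered Sham pairs between populations, with replicate 3 at 0.542 to 0.647. The 10 RAS pairs were at 0.054 to 0.505. Same-numbered pairs of RAS and Sham ran from -0.196 to 0.325 within 1 population and from -0.466 to 0.414 between populations. Differently numbered pairs were not compared, so whether a number pairs libraries was not tested.

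The members and the 15 lists of 142 genes (5 under older symbols) were chosen with earlier results of these data known. Of each list, at most 4 called genes per comparison were named, by the size of the log2 fold change, except for items not reported here, and likeness was ranked by Pearson r for the first 3 genes. Marker levels named beside these were chosen after their values were seen.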

Additional observations from a re-analysis of the deposited data

Results flagged for a closer look

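In groups of 4 libraries the highest or lowest library was compared with the rest by Dixon's ratio (95% critical value 0.829), over 42 groups of receptors and summed lists. Chance flags about 1 in 20 groups, and 7 were flagged here. CD11chiMϕ RAS replicate 1 stood apart with the highest *Siglec1* (37.22 CPM) and *Siglech* (12.37 CPM) and the lowest plasmacytoid dendritic cell sum (205.3 CPM). CD11cloMϕ RAS replicate 3 stood apart with the highest *Siglec1* (118.3 CPM), *Mag* (16.39 CPM) and plasmacytoid dendritic cell sum (341.6 CPM). Those sums include *Klk1*. Without it the first was 194 CPM, next to 211.9, and no longer stood apart (ratio 0.195), while the second was 272.7 CPM and still did (ratio 0.861). KRM Sham replicate 3 stood apart with a tubular epithelium sum of 1140 CPM. The response of *Cd24a* to RAS differed between KRM and CD11cloMϕ by 6.56 on the log2 scale (SE 1.10, adjusted p = 0.0393 from edgeR's interaction term), being 6.03 in KRM, where the tubular markers also rose. This call was lost without any 1 of KRM Sham replicates 1, 2 and 3 and with no Sham library numbered 3, where 0 genes were called.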

How the results depend on the processing

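Counts of called genes moved with the processing, and the cause was not tested. Between KRM and CD11chiMϕ 635 genes were called, against 395 with no filter, 1686 by DESeq2, 89 with the replicate number as a block, 389 by limma and 1493 with no Sham library numbered 3. Between KRM and CD11cloMϕ 5178 were called, against 3447 in 1 fit over all groups. Between CD11chiMϕ and CD11cloMϕ 184 were called, against 95 with no filter, 1051 by DESeq2, 818 in 1 fit over all groups, 595 with the block, 103 by limma and 1897 with no Sham library numbered 3. For RAS, 0 were called in CD11chiMϕ, against 190 by DESeq2 and 5 in 1 fit, 0 in CD11cloMϕ, against 103 by DESeq2, and 1247 in KRM, against 4043 by DESeq2, 42 with the block, 2599 by limma and 7354 by limma without the column of KRM RAS replicate 1. For the interaction of KRM minus CD11chiMϕ 0 were called, against 1 with no filter, 1231 by DESeq2, 16 in 1 fit, 133 by limma and 1094 by limma without that column. For KRM minus CD11cloMϕ 34 were called, against 59 with median-of-ratios size factors, 74 with no filter, 1380 by DESeq2, 58 in 1 fit, 1 with the block, 1459 by limma, 3932 by limma without that column and 0 with no Sham library numbered 3. For CD11chiMϕ minus CD11cloMϕ 0 were called, against 15 by DESeq2. Leaving out 1 library gave 155 (without KRM Sham replicate 2) to 1717 (without CD11chiMϕ Sham replicate 3), 4007 to 5940, and 0 to 704 for the populations, 0 to 39, 0 to 0, and 28 (without KRM Sham replicate 1) to 7070 (without KRM RAS replicate 1) for RAS, and 0 to 1097, 0 to 2357 and 0 to 0 for the interactions. The share of higher genes among the calls between KRM and CD11chiMϕ was 19.5%, but 32.5% by DESeq2, 32.1% by limma, 3.77% in 1 fit and 2.25% with the block. It was 41.2% without CD11chiMϕ Sham replicate 2 and 3.24% without KRM Sham replicate 1. For RAS in KRM it was 80%, but 42.5% by limma, 92.9% with the block and 56% without KRM RAS replicate 1. For KRM minus CD11cloMϕ it was 91.2%, but 65% by DESeq2, 39.8% by limma and 51.1% without KRM RAS replicate 1. Between CD11chiMϕ and CD11cloMϕ it was 60.3%, but 50.1% with no Sham library numbered 3. By limma the median of all genes lay at -0.15 for RAS in KRM, against 0.02 by edgeR. Of 891 alternative log2 fold changes of the 6 receptors, 850 moved by less than 1 SD and 41 by more. The sign turned in 26 of them, over 10 of the 54 values, none larger than 0.86 in the main analysis, and no called value was reversed. Low counts limit *Siglech* in CD11cloMϕ and *Siglecf* and *Siglecg* in KRM.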
